A study of Mus musculus with 6 samples.

Results

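Chromatin accessibility was examined at 10 chemokine genes of myeloid cells, comprising the ligands Ccl2, Ccl3, Ccl4, Ccl5, Ccl6, Ccl9, Cxcl2 and Cxcl10 and the receptors Ccr1 and Cxcr4. Their peaks were those that the authors' annotation assigned to a listed gene within 100000 bp of its transcription start site (TSS). There were 44 such peaks among 175929 in the table. They came from 8 of the 10 genes, with 21 peaks at Ccr1, 6 at Cxcl10, 5 at Cxcr4, 4 at Cxcl2, 3 at Ccl5, 2 each at Ccl3 and Ccl9, and 1 at Ccl2. No peak was assigned to Ccl4 or Ccl6.

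The assay was ATAC-seq, which tags open DNA with a transposase so that accessible stretches yield more sequenced fragments (tags). The cells were mouse leukaemia cells that carried a floxed Usp18 allele (Usp18+/f) and an ER-Cre transgene, transformed by AML1/ETO 9a (AE9a) and marked by GFP, and they were transplanted into recipient mice. Once the mice were ill they received oil (replicates 1, 2 and 4) or tamoxifen (replicates 1, 3 and 4), and GFP+ Lin- c-Kit+ cells were sorted from the spleen 3 days after the first injection. Both groups therefore carried AE9a, a floxed Usp18 allele and the Cre transgene, which becomes active with tamoxifen. Tamoxifen exposure and loss of the floxed allele occurred in the same libraries and cannot be told apart. The labels do not tie libraries to mice. The study's methods describe as many mice in a group as there are libraries here, but its statement on replication gives a smaller number for ATAC-seq, so each SD, n and p-value describes the spread between libraries.

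Chemokines are small secreted proteins that guide the movement of leukocytes through G protein-coupled receptors. Ccl2, Ccl3, Ccl4, Ccl5, Ccl6 and Ccl9 are CC chemokines that draw monocytes, macrophages and other leukocytes, Cxcl2 draws neutrophils through Cxcr2, and Cxcl10 is an interferon-inducible ligand of Cxcr3. Ccr1 binds Ccl3, Ccl5 and Ccl9 among others, and Cxcr4 binds Cxcl12, which retains haematopoietic progenitors in the bone marrow. USP18 takes ISG15, a ubiquitin-like modifier, off its target proteins and dampens signalling by the type I interferon receptor, and several of these ligands are targets of interferon or NF-kB.

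Each library held between 57358372 and 74667822 mapped tags, of which 17.5 M to 21.1 M fell in peaks, and the median peak held 45.0 to 57.0 tags. Tags divided by a size factor per library are called normalised tags below, and a peak was called at a Benjamini-Hochberg adjusted p under 0.05 in a DESeq2 fit of all peaks. The 15 peaks of Usp18 itself summed to between 1714 and 1787 normalised tags in each library, and 0 of them were called. The labels do not give the stretch that Cre removes, so this was no check of the deletion. Tamoxifen replicate 4 stood apart from its group, as its normalised log tags correlated at 0.949 with each of the other tamoxifen libraries and at 0.960 to 0.964 with the oil libraries. Values without it are given below for the called peaks and the gene sums. In bulk sorted cells, a change in the share of a cell type and a change in accessibility per cell cannot be told apart.

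The sequences below are the reference DNA of the peaks that passed the test. The central 200 bases of the 4 called peaks are given on the plus strand of mm10 (RefSeq GRCm38.p6), and capitals mark matches on either strand to the core letters of AP-1 (TGANTCA), PU.1 (GAGGAA) and RUNX (TGTGGT). The same capitals would mark NF-kB (GGGANTTCC or GGGANNTTCC), ISRE (GAAANNGAAA) and C/EBP (TTGCNNAA) letters.
Ccl5, chr11:83537109-83537308: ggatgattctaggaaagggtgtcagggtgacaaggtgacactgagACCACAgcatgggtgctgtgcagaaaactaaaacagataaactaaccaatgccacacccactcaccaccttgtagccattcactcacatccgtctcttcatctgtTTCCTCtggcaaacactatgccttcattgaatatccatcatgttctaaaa
Ccl5, chr11:83550142-83550341: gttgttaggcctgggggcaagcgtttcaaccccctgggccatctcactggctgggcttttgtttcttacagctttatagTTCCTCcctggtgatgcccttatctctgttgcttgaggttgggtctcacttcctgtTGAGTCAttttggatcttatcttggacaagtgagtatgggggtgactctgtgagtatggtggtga
Ccl9, chr11:83572356-83572555: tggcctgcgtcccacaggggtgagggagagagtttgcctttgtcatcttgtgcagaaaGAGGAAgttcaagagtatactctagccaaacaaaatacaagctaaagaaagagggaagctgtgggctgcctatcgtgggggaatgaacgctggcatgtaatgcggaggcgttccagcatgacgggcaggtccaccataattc
Ccl3, chr11:83632893-83633092: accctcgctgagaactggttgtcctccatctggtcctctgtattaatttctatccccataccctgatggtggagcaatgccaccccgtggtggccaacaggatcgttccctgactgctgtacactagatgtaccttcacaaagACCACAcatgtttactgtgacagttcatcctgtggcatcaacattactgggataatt

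The PU.1 letters stood in 3 of these 4 windows, the RUNX letters in 2 and the AP-1 letters in 1, and NF-kB, ISRE and C/EBP letters in 0. Over the central 200 bases of 175738 peaks, the PU.1 letters were found in 21.6%, the RUNX letters in 18.7%, the AP-1 letters in 6.61%, the ISRE letters in 2.03% and the NF-kB letters in 1.91%. Among the 44 chemokine peaks the PU.1 letters were in 14, the AP-1 and RUNX letters in 5 each, the NF-kB letters in 3, the ISRE letters in 2 and the C/EBP letters in 1, against 6.45% of all peaks for C/EBP. The 3 peaks with NF-kB letters were the TSS peaks of Cxcl10 and Cxcl2 and the highest Ccr1 peak, and none of these 3 was called. A match describes letters only, and a window without one says nothing of whether a factor bound there.

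The 200 bases before the TSS of Cxcl10 and Cxcl2 are shown for contrast, since these promoters hold the NF-kB letters and were open in both groups. They are read on the strand of the gene, from the minus strand for Cxcl10 and the plus strand for Cxcl2, and capitals mark NF-kB and AP-1 letters.
Cxcl10, chr5:92348890-92349089: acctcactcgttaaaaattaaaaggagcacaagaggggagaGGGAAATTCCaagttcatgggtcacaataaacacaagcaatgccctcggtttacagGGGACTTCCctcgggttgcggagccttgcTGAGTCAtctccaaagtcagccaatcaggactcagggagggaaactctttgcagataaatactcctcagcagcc
Cxcl2, chr5:90903699-90903898: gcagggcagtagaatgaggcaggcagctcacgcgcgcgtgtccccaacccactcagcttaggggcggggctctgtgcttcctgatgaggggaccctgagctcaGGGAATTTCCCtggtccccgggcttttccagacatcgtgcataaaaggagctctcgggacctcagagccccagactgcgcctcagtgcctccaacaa

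NF-kB letters were found in the 200 bases before the TSS of 2 of the 7 listed genes in the RefSeq promoter table (Cxcl2 and Cxcl10) and of 2.23% of all 32851 promoters there. AP-1 letters were found before Cxcl10 and Ccl9, and PU.1 and RUNX letters before Ccr1 and Ccl3, against 5.48%, 19.0% and 11.2% of all promoters. ISRE and C/EBP letters were in 0 of the 7, against 2.27% and 7.47% of all promoters. Ccl2, Ccl4 and Ccl5 were not in that table.

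Accessibility was higher after tamoxifen at Ccl5, Ccl9 and Ccl3, neighbouring CC chemokine genes of chromosome 11, and no peak of the other listed genes was called. Of the 44 peaks, 4 were called higher (9.09%) and 0 lower, where 1.22% of all peaks were called higher and 1.39% were called in either direction. The 4 peaks lay at Ccl5 (2 peaks), Ccl9 and Ccl3, and at 3 of them the fold was over 2, against 0.588% of all peaks called higher with such a fold. At an unadjusted p under 0.05 there were 11 peaks, 10 of them higher and 1 lower, where 9.02% of all peaks passed. With edgeR 6 were called higher and 1 lower, but edgeR called more peaks throughout, 5136 of all peaks against 2448 by DESeq2. In 14 peaks (31.8%) every tamoxifen library lay above every oil library, which held for 11.9% of all peaks. Among lists described below this share was 30.0% for T and NK cell genes, 25.4% for mast cell and basophil genes and 21.9% for other ligands. It was 13.4% for other receptors and 9.76% for neutrophil genes. In 1 chemokine peak every tamoxifen library lay below, and the share of all peaks with that order was not computed.

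Across the 44 peaks the log2 fold change was above 0 in 33 and below 0 in 11, with a median of 0.19, and the median over all peaks was -0.0013. Ccr1 contributed almost as many peaks as the other genes together, and without it the median over the other 23 peaks was 0.38. All 4 called peaks lay beyond 3000 bp of a TSS. Ccl5, Ccl9 and Ccl3 had no peak within 3000 bp, so calls at these genes could only be distal. By the authors' peak lists, 31 peaks were listed in both groups, 4 in oil alone and 9 in tamoxifen alone. The tamoxifen-only share was 20.5%, against 11.2% of all peaks, and the oil-only share was 9.09%, against 17.4%. Peaks listed in 1 group alone entered the table through that group. The signs, the medians and the counts of peaks without overlap do not allow for this selection. The count of 4 rested on few libraries. Leaving out tamoxifen replicate 3 gave 0 calls, and leaving out oil replicate 2 or oil replicate 4 gave 1. Without tamoxifen replicate 1 the count was 2, without oil replicate 1 it was 3 and without tamoxifen replicate 4 it was 5. Calls over all peaks moved too, from 2448 with all libraries to 629 without tamoxifen replicate 3 and 6529 without tamoxifen replicate 4.

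**Figure D1:**
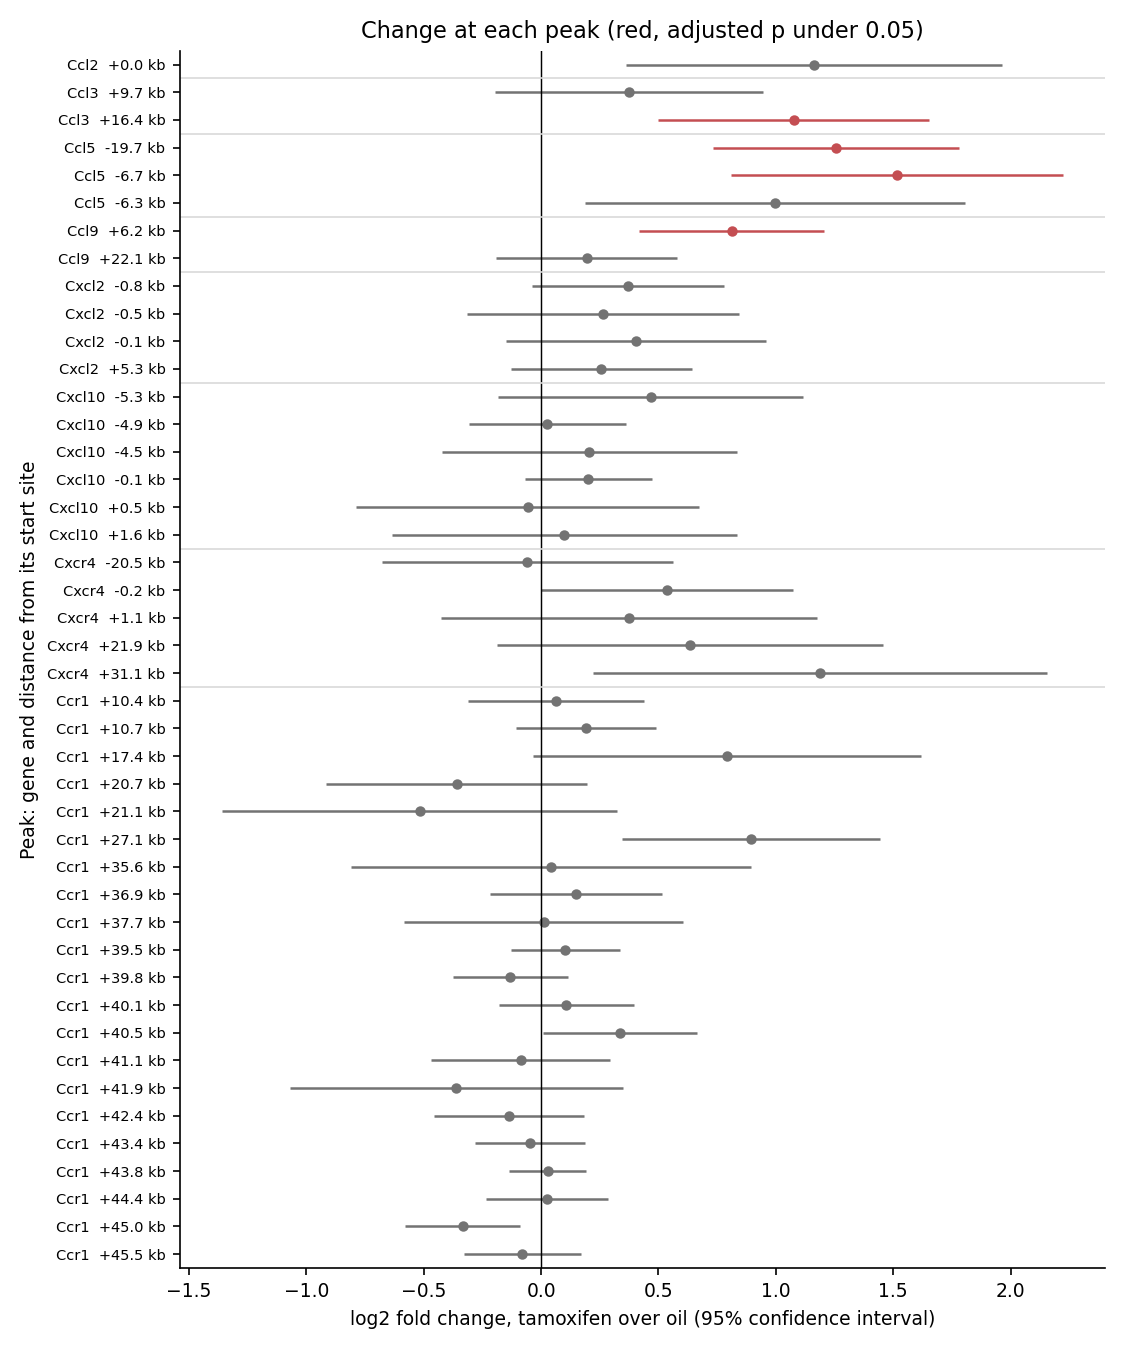
log2 fold change of tamoxifen over oil (x axis) at each of the 44 peaks (y axis, gene and distance from its TSS in kb), with bars for the 95% confidence interval of the DESeq2 fit. The 4 peaks in red had an adjusted p under 0.05, and all 4 lie to the right of 0 at Ccl3, Ccl5 and Ccl9.

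Ccl5 encodes RANTES, a ligand of Ccr1 and Ccr3 that T cells and activated myeloid cells secrete. Its gene (chr11:83525778-83530518, minus strand) had no peak within 3000 bp of its TSS, and its 3 peaks lay upstream. The peak at chr11:83550130-83550353, 19723 bp upstream in an intergenic stretch, held 40.8, 32.7 and 42.1 normalised tags in the oil libraries and 90.4, 120.3 and 67.5 in the tamoxifen libraries (replicates in the order given above). The groups did not overlap, and tamoxifen replicate 3 was the highest and tamoxifen replicate 4 the lowest of its group. The means were 38.5 ± 5.12 and 92.7 ± 26.5 (SD, n = 3 each), a 2.39-fold difference (log2 fold change 1.25 ± 0.27 SE, DESeq2 adjusted p = 0.000777). Without tamoxifen replicate 3 the log2 fold change was 1.03 and the adjusted p 0.129, and without tamoxifen replicate 4 they were 1.45 and 2.0e-05.

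The peak at chr11:83537066-83537350, 6690 bp upstream of the Ccl5 TSS, lay inside the non-coding RNA gene model Gm32650. It held 19.9, 15.1 and 15.2 normalised tags in oil and 46.4, 61.3 and 37.7 after tamoxifen. All tamoxifen values were thus well above the oil values, with means of 48.5 ± 11.9 against 16.7 ± 2.70 (2.86-fold, log2 fold change 1.52 ± 0.36 SE, DESeq2 adjusted p = 0.0044). It was faint in oil, at 5.87 normalised tags per 100 bp, the 1.41st percentile of all peaks. The adjusted p became 0.0790 on leaving out oil replicate 2, 0.0899 on leaving out oil replicate 4 and 0.246 on leaving out tamoxifen replicate 3, whereas leaving out tamoxifen replicate 4 gave 0.0012. The neighbouring peak at chr11:83536713-83536943, also within Gm32650, gave 17.1, 19.5 and 10.3 in oil and 29.0, 42.9 and 24.7 after tamoxifen. Its groups did not overlap either, but its log2 fold change of 1.00 ± 0.41 SE had an adjusted p of 0.331 (DESeq2). Both peaks of this pair were in the tamoxifen peak list alone, so they entered the table through the group where they were higher.

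When the tags of all peaks of a gene were summed, which gives each gene a value per library with less counting error, Ccl5 had 77.2, 67.3 and 68.1 normalised tags in oil and 166.3, 225.1 and 130.4 after tamoxifen. The log2 fold change was 1.29 ± 0.21 SE (2.45-fold, 95% interval 1.84 to 3.26, DESeq2 adjusted p = 1.35e-07 over 19781 genes). Of these genes 6.31% were called higher, and among the 8 chemokine genes Ccl5, Ccl3 and Ccl9 were. Ccl5 was the only one of the 3 that was still called after leaving out each library in turn. Its log2 fold changes then ran from 1.07 without tamoxifen replicate 3 to 1.47 without tamoxifen replicate 4. The Ccl5 sum includes 2 peaks that entered the table through the tamoxifen peak list alone. Neither its p-value nor these fits allow for that selection.

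**Figure D2:**
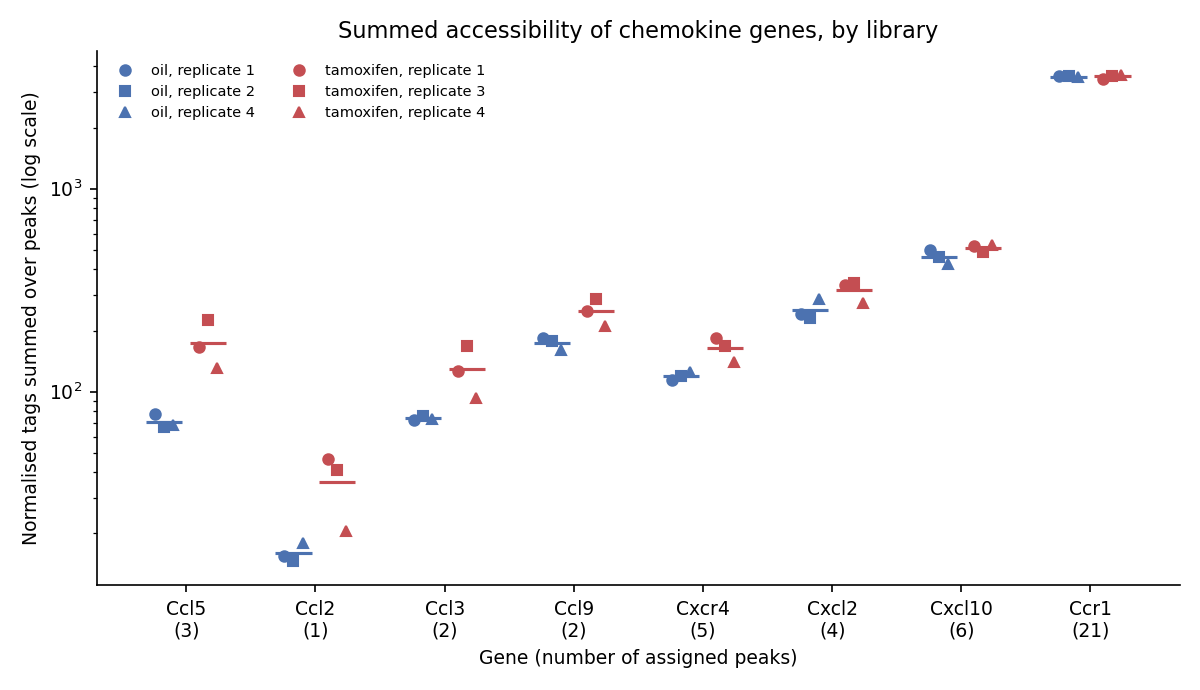
Normalised tags summed over the peaks of each gene (y axis, log scale) in each library, with the number of peaks under the gene name. Short lines are group means. The Ccl5, Ccl2, Ccl3, Ccl9 and Cxcr4 groups do not overlap, whereas Ccr1 lies between 3484 and 3630 in all 6 libraries.

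Ccl9 encodes MIP-1 gamma, a rodent chemokine that acts through Ccr1. Its gene (chr11:83572917-83578636, minus strand) also lacked a peak within 3000 bp of the TSS. The called peak, chr11:83572328-83572582, lay just past the 3′ end of the gene, 6181 bp from the TSS. It held 91.0, 71.7 and 80.2 normalised tags in oil and 140.2, 173.3 and 113.1 after tamoxifen, so that the lowest tamoxifen library was above the highest oil library. The means were 81.0 ± 9.69 and 142.2 ± 30.1 (1.76-fold, log2 fold change 0.81 ± 0.20 SE, DESeq2 adjusted p = 0.0082). With a library left out the adjusted p became 0.177 (oil replicate 2), 0.110 (oil replicate 4), 0.0766 (tamoxifen replicate 1) or 0.381 (tamoxifen replicate 3), whereas leaving out tamoxifen replicate 4 gave 0.000429. The other Ccl9 peak, chr11:83556386-83556601, was of similar height in oil (92.9 ± 13.3) and its groups overlapped (106.1 ± 8.34 after tamoxifen, log2 fold change 0.19 ± 0.20 SE, DESeq2 adjusted p = 0.905).

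Summed over its 2 peaks, Ccl9 had 183.1, 177.5 and 159.5 normalised tags in oil and 248.4, 286.3 and 210.4 after tamoxifen. The log2 fold change was 0.52 ± 0.15 SE (DESeq2 adjusted p = 0.0106). This call did not hold when a library other than tamoxifen replicate 4 was left out, the adjusted p then being 0.0544 (oil replicate 1), 0.0722 (oil replicate 2), 0.164 (oil replicate 4), 0.0773 (tamoxifen replicate 1) or 0.238 (tamoxifen replicate 3), and without tamoxifen replicate 4 the log2 fold change was 0.63 (adjusted p = 0.000451).

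Ccl3 encodes MIP-1 alpha, a ligand of Ccr1 made by activated macrophages and by haematopoietic cells. The called peak, chr11:83632887-83633097, lay downstream of the gene, 16386 bp from its TSS (chr11:83647843-83649378, minus strand). It held 32.5, 41.9 and 39.9 normalised tags in oil and 78.8, 114.2 and 50.7 after tamoxifen. Tamoxifen replicate 3 was more than double tamoxifen replicate 4, yet the latter was still above every oil library. The means were 38.1 ± 4.93 and 81.2 ± 31.8 (2.11-fold, log2 fold change 1.08 ± 0.29 SE, DESeq2 adjusted p = 0.0251). With a library left out it became 0.286 (oil replicate 1), 0.123 (oil replicate 2), 0.168 (oil replicate 4), 0.152 (tamoxifen replicate 1) or 0.812 (tamoxifen replicate 3), whereas leaving out tamoxifen replicate 4 gave 0.000286. The nearer peak, chr11:83639598-83639839, gave 36.5 ± 3.75 in oil and 47.6 ± 5.93 after tamoxifen, without overlap (log2 fold change 0.38 ± 0.29 SE, DESeq2 adjusted p = 0.827).

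Summed over both peaks, Ccl3 had 72.8, 76.1 and 73.5 normalised tags in oil and 125.7, 168.2 and 93.1 after tamoxifen. The log2 fold change was 0.79 ± 0.22 SE (1.73-fold, DESeq2 adjusted p = 0.0084). It was not called once a library other than tamoxifen replicate 4 was left out, at an adjusted p of 0.0817 (oil replicate 1), 0.0632 (oil replicate 2), 0.0820 (oil replicate 4), 0.0553 (tamoxifen replicate 1) or 0.293 (tamoxifen replicate 3), and without tamoxifen replicate 4 the log2 fold change was 0.98 (adjusted p = 8.73e-05).

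Ccl5, Ccl9, Ccl6, Ccl3 and Ccl4 lie in that order within 138.9 kb of chromosome 11 (chr11:83525778-83664683). Ccl6 is a further rodent CC chemokine and Ccl4 encodes MIP-1 beta, which draws monocytes and lymphocytes. For Ccl6 the nearest peak was chr11:83584336-83584541, 8649 bp from its TSS and assigned to the non-coding RNA gene E230016K23Rik, and for Ccl4 it was the nearer Ccl3 peak, 22866 bp upstream. All 8 peaks in the interval, the 7 described above and the E230016K23Rik peak, had a log2 fold change above 0. In 7 of the 8 every tamoxifen library lay above every oil library, which held for 11.9% of all peaks, and 4 were called. The 8 peaks include the 4 calls given above, so neither their count nor their sum is a separate test. The E230016K23Rik peak held 13.6 ± 4.33 normalised tags in oil and 25.2 ± 3.41 after tamoxifen (log2 fold change 0.94 ± 0.44 SE, DESeq2 adjusted p = 0.469). It was in the tamoxifen peak list alone, as were the Ccl5 peaks within Gm32650.

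Summed over the 8 peaks, which cover 1870 bp, the interval held 348.0, 339.8 and 310.9 normalised tags in oil and 567.4, 705.3 and 454.4 after tamoxifen. The oil libraries lay within a narrow range and the tamoxifen libraries were all higher but spread more widely. The ratio of means was 1.73 (332.9 ± 19.5 against 575.7 ± 126). An exact two-sided permutation test gave p = 0.1, the smallest that 3 against 3 libraries can give. The sum includes the called peaks and peaks listed in tamoxifen alone. This p-value does not allow for that selection, so no conclusion was drawn from it.

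**Figure D3:**
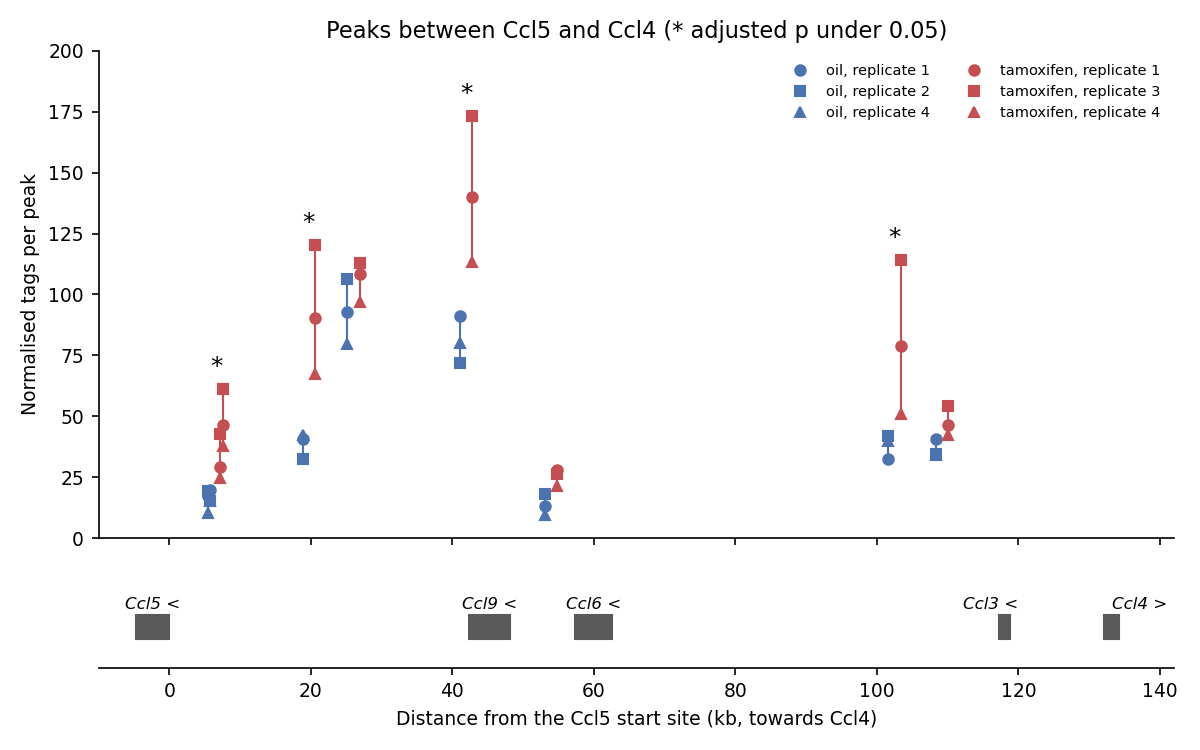
Normalised tags per peak (y axis) at the 8 peaks between Ccl5 and Ccl4, by distance from the Ccl5 TSS in kb (x axis, points of the groups set slightly apart), with gene bodies below and the direction of transcription as an arrowhead. Each symbol is a library, vertical lines join the lowest and highest of a group, and stars mark the 4 called peaks. The tamoxifen libraries lie above the oil libraries in all peaks but the one at 26.0 kb.

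Ccl2 encodes MCP-1, the main attractant of Ccr2-bearing monocytes, and lies 1488 kb before this interval on the same chromosome. Its only peak, chr11:82035402-82035762, covered the TSS. It held 16.0, 14.6 and 17.5 normalised tags in oil and 46.4, 41.2 and 20.5 after tamoxifen. Tamoxifen replicates 1 and 3 were well above all oil libraries, and replicate 4 was only slightly above the highest of them. The peak was not called (log2 fold change 1.16 ± 0.41 SE, DESeq2 adjusted p = 0.164). Without tamoxifen replicate 4 the log2 fold change was 1.45 and the adjusted p 0.0145, and edgeR's quasi-likelihood test on all 6 libraries gave an adjusted p of 0.0406. In the fit of gene sums, leaving out tamoxifen replicate 3 gave Ccl2 a log2 fold change of 1.06 (DESeq2 adjusted p = 0.366). With 4.44 normalised tags per 100 bp in oil, this peak lay at the 0.263rd percentile of all peaks, and it was in the tamoxifen list alone.

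The 4 peaks of Cxcl2, which encodes MIP-2, all had log2 fold changes above 0 but none was called. They lay at 842, 506 and 76 bp before the TSS and 5277 bp after it, with log2 fold changes from 0.26 to 0.41 and the smallest DESeq2 adjusted p at 0.639. The TSS peak, chr5:90903610-90904036, held 36.4, 40.5 and 47.9 normalised tags in oil and 55.1, 69.1 and 43.8 after tamoxifen, with tamoxifen replicate 4 inside the oil range. The peak farthest upstream, chr5:90902928-90903186, was the only one without overlap (73.4 ± 6.29 against 95.7 ± 8.40, log2 fold change 0.37 ± 0.21 SE, DESeq2 adjusted p = 0.639). The highest peak was the one downstream, chr5:90909039-90909313, with 93.7 ± 11.0 in oil and 112.7 ± 15.3 after tamoxifen. The gene's summed tags were 253.1 ± 30.4 and 318.1 ± 38.6, a log2 fold change of 0.33 ± 0.13 SE (DESeq2 adjusted p = 0.121, and 0.0115 without tamoxifen replicate 4, with a log2 fold change of 0.43). Without tamoxifen replicate 3 the log2 fold change was 0.27 (DESeq2 adjusted p = 0.563).

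Cxcl10, the interferon-inducible ligand IP-10, had the most accessible TSS of the listed genes. Its peak chr5:92348807-92349079 held 256.5, 218.9 and 188.2 normalised tags in oil and 256.6, 254.6 and 247.2 after tamoxifen. The tamoxifen libraries were close to each other and to oil replicate 1. The log2 fold change was 0.20 ± 0.14 SE, with a 95% interval from -0.070 to 0.47 (DESeq2 adjusted p = 0.772). At 81.0 normalised tags per 100 bp in oil it lay at the 86.1st percentile of all peaks. The 6 Cxcl10 peaks, all of which also lie in the gene model of Art3, had log2 fold changes from -0.057 to 0.47. Summed, they gave 462.2 ± 37.5 in oil and 512.3 ± 21.1 after tamoxifen (1.11-fold, 95% interval 0.974 to 1.27, DESeq2 adjusted p = 0.435, and 0.456 without tamoxifen replicate 4).

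Cxcr4, the receptor for Cxcl12, had 5 peaks, of which 3 were in the tamoxifen list alone and 3 did not overlap between groups. The TSS peak, chr1:128592281-128592713, held 39.2, 37.1 and 39.9 normalised tags in oil and 60.9, 53.5 and 54.0 after tamoxifen. Here tamoxifen replicate 4 was level with replicate 3, and all 3 were above oil (1.45-fold, log2 fold change 0.54 ± 0.27 SE, DESeq2 adjusted p = 0.552). The peak with the smallest unadjusted p, chr1:128561104-128561315, lay 31090 bp downstream of the TSS and was faint, with 9.79 ± 1.60 in oil and 22.4 ± 7.33 after tamoxifen (log2 fold change 1.19 ± 0.49 SE, DESeq2 adjusted p = 0.336). The summed tags of Cxcr4 were 114.7, 119.0 and 125.4 in oil and 184.6, 167.1 and 139.7 after tamoxifen. They did not overlap, but the gene was not called (log2 fold change 0.45 ± 0.17 SE, DESeq2 adjusted p = 0.0871). Leaving out tamoxifen replicate 4 gave 0.56 and an adjusted p of 0.0129, whereas leaving out tamoxifen replicate 3 gave 0.43 and 0.353.

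Ccr1, the receptor shared by Ccl3, Ccl5 and Ccl9, had 21 peaks and 0 were called by DESeq2, with 3 at an unadjusted p under 0.05 and 2 called by edgeR. It had no peak within 3000 bp of its TSS (chr9:123962126-123968692, minus strand), and the nearest, chr9:123958212-123958438, lay 10367 bp downstream, past the 3′ end. The summed tags of Ccr1 were 3591, 3571 and 3530 in oil and 3484, 3609 and 3630 after tamoxifen, so the libraries of both groups interleaved. The ratio was 1.00 with a 95% interval from 0.941 to 1.07 (DESeq2 adjusted p = 0.987, and 0.962 without tamoxifen replicate 4). Of the 21 peaks, 10 lay within 1000 bp of the non-coding RNA gene Gm51701 (chr9:123925148-123928706), and these held 68.0% of the oil tags assigned to Ccr1.

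The highest of the 44 peaks was Ccr1 peak chr9:123924759-123924963, just before the start of Gm51701, with 693.6 ± 20.4 normalised tags in oil and 707.9 ± 31.3 after tamoxifen (log2 fold change 0.029 ± 0.084 SE, DESeq2 adjusted p = 0.988). It lay at the 99.4th percentile of all peaks per 100 bp, and 78.0% of its central bases were G or C. The Ccr1 peak with the smallest p, chr9:123941451-123941729, was far fainter. It held 27.0, 35.1 and 42.6 normalised tags in oil and 58.5, 68.5 and 68.9 after tamoxifen, with no overlap (log2 fold change 0.89 ± 0.28 SE, DESeq2 adjusted p = 0.0794, edgeR adjusted p = 0.0198). In the opposite direction, chr9:123923557-123923830 held 310.2 ± 16.1 in oil and 246.0 ± 23.4 after tamoxifen, every tamoxifen library being below every oil library (log2 fold change -0.33 ± 0.12 SE, DESeq2 adjusted p = 0.217, edgeR adjusted p = 0.0436). The log2 fold changes of the 21 peaks ran from -0.52 to 0.89, with 12 above 0 and 9 below.

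**Figure D4:**
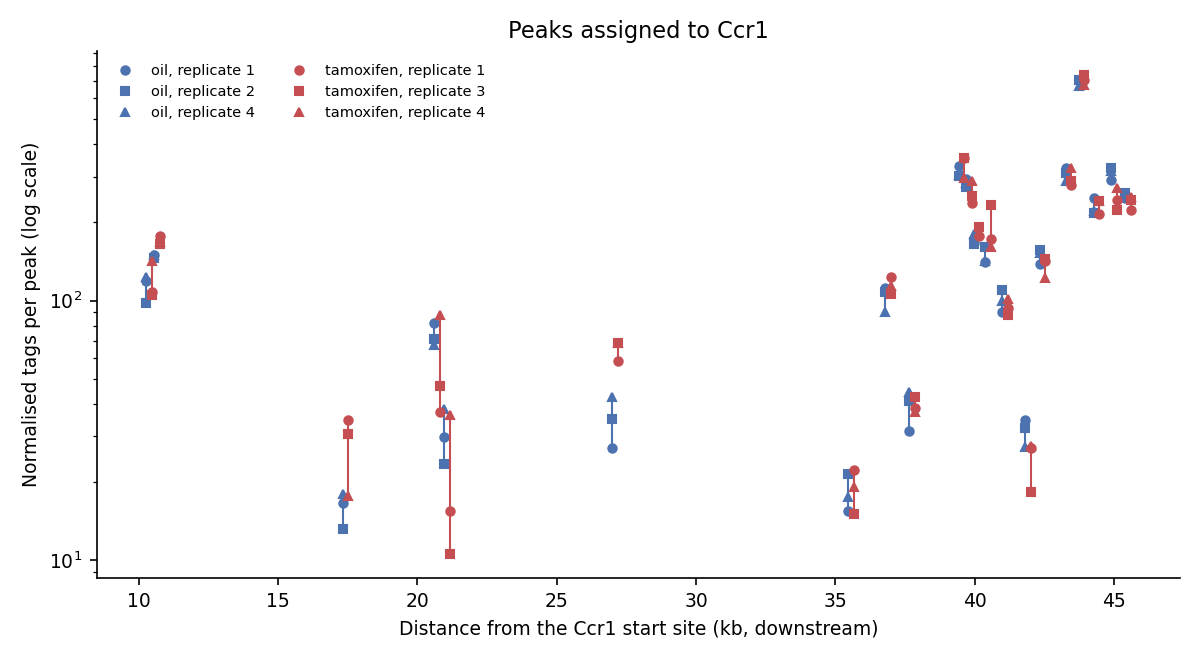
Normalised tags per peak (y axis, log scale) at the 21 peaks assigned to Ccr1, by distance downstream of its TSS in kb (x axis, points of the groups set slightly apart). Each symbol is a library and vertical lines join the lowest and highest of a group. The peak at 27.1 kb is higher in all 3 tamoxifen libraries and the peak at 45.0 kb is lower in all 3, while the tallest peak, at 43.8 kb, overlaps between the groups.

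Per length of peak, the order of the genes in oil was Ccr1 (65.9 ± 0.571 normalised tags per 100 bp), Ccl9 (36.8 ± 2.62), Cxcl10 (26.1 ± 2.12), Cxcl2 (19.4 ± 2.33), Ccl3 (16.4 ± 0.380), Ccl5 (9.58 ± 0.745), Cxcr4 (9.17 ± 0.413) and Ccl2 (4.43 ± 0.475). Ccl5 and Cxcr4 did not differ beyond their spread in this order, and each other pair of neighbours was separated. After tamoxifen Ccl9 stood at 52.7 ± 8.06, Ccl3 at 28.5 ± 8.32 and Ccl5 at 23.5 ± 6.46 normalised tags per 100 bp. Cxcl10 (28.9 ± 1.19), Ccl3, Cxcl2 (24.4 ± 2.96) and Ccl5 then overlapped from neighbour to neighbour, and Cxcr4 (12.5 ± 1.73) overlapped Ccl2 (9.98 ± 3.80).

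The rest of the chemokine system was examined in the same fit. Among 160 peaks of 24 other ligands 2 were called higher and 1 lower (1.88%). They were a distal peak of Cxcl14 (log2 fold change 1.76 ± 0.42 SE, DESeq2 adjusted p = 0.0047), a distal Ccl1 peak (0.29 ± 0.080, 0.0295) and an intronic Ccl28 peak (-0.48 ± 0.12, 0.0117). Among 157 peaks of 21 other receptors 3 were called higher and 0 lower (1.91%). These were the TSS peaks of Cx3cr1 (0.90 ± 0.20, adjusted p = 0.0013) and of Cxcr3, the receptor of Cxcl10 (0.96 ± 0.23, 0.0047), and a distal peak of Ccr7 (0.82 ± 0.23, 0.0271). Among 358 peaks of 20 genes that relay chemokine receptor signals, 8 were called higher and 0 lower (2.23%). The 3 with the smallest adjusted p were at Prex1, an exchange factor for Rac (1.01 ± 0.14, 6.34e-10), Rac2, a GTPase of haematopoietic cells (1.50 ± 0.22, 1.92e-08), and Grk2, a kinase that desensitises receptors (0.60 ± 0.12, 0.000352).

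These shares stand beside 1.39% of all peaks, and the difference from the 44 chemokine peaks was not tested. The medians of log2 fold change were 0.030 for other ligands, 0.0076 for other receptors and -0.018 for the signalling genes. Without tamoxifen replicate 4 the counts were 4 higher and 5 lower for other ligands, 4 and 3 for other receptors, and 10 and 6 for signalling genes. Without tamoxifen replicate 3 they were 0, 0 and 3 in all. Calls over all peaks were 6529 without tamoxifen replicate 4 and 629 without tamoxifen replicate 3, against 2448 with all libraries.

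Cells of other types could be in the sorted population, and markers of several types were measured. All 6 blast and progenitor genes (Kit, Cd34, Myb, Runx1, Flt3 and Mpo) had peaks, of which 7 of 321 were called higher and 1 lower. The higher ones were at Cd34 (7 peaks) and Runx1 (255 peaks), and the lower one was at Runx1. The smallest adjusted p was at the Cd34 TSS peak (log2 fold change 1.50 ± 0.19 SE, DESeq2 adjusted p = 8.32e-12). Monocyte and macrophage genes, which mark cells that make these ligands, had 1 of 43 peaks called higher, the Cx3cr1 TSS peak named above, with summed tags from 5647 to 5804 in oil and 5878 to 6005 after tamoxifen. Neutrophil genes had 0 of 41 peaks called (2 at an unadjusted p under 0.05, sums from 2493 to 2566 and 2651 to 2742). T and NK cell genes had 1 of 40 called higher, at Cd3d, with sums from 3842 to 4101 and 4446 to 4548. B cell genes had 0 of 37 called (3 at an unadjusted p under 0.05, sums from 2032 to 2106 and 2050 to 2262).

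Erythroid genes were described with 1 gene left out, a choice made after the data were seen. Of their 59 peaks 0 were called by DESeq2 or edgeR (1 at an unadjusted p under 0.05), with a median log2 fold change of -0.19, and their sums of 8187, 8021 and 8056 in oil lay above those of 7802, 7841 and 7314 after tamoxifen. Mast cell and basophil genes had 5 of 67 called higher (7.46%), with a median log2 fold change of 0.51 over the list. All 5 were at Hdc, which encodes histidine decarboxylase and held 50 of the 67 peaks. Each was in the tamoxifen peak list alone, so it entered the table through the group where it was higher. Sums of this list were 4423, 4304 and 4964 in oil and 5621, 7078 and 5186 after tamoxifen. Tamoxifen replicate 3 was thus highest and replicate 4 lowest of its group, as in the Ccl5, Ccl9 and Ccl3 sums. Blast sums ran from 26889 to 27941 in oil and 28541 to 31519 after tamoxifen, with this order of the tamoxifen libraries. The T and NK sums (4488, 4548 and 4446 in tamoxifen replicates 1, 3 and 4) and the erythroid sums above had it too. The monocyte (5878, 6005 and 5906), neutrophil (2742, 2651 and 2737) and B cell (2248, 2050 and 2262) sums did not. Tamoxifen replicate 4 also lay nearer to oil over all peaks, as given above. The genes without any peak were Emr1 and Mrc1 in the monocyte list, Camp in the neutrophil list, Ncr1 and Gzma in the T and NK list and Ms4a1 in the B cell list. Whether the makeup of the sorted cells had a part in the differences at the chemokine genes was not tested.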

How the data were processed

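ATAC-seq libraries of sorted AE9a leukaemia cells (3 oil, 3 tamoxifen) were analysed from the deposited table of tags per peak. Per the labels and the study's methods, the authors mapped reads to mm10 with Bowtie2, called peaks with HOMER, merged the peak lists of the groups and counted tags in each library (tool versions are not given in the sources used here). The deposited values are an estimated count per peak, not normalised, in steps of 0.5 because the mates of a pair add 0.5 each, and no position adds over 3 tags. That limit caps the highest peaks, and a region called in neither group is not in the table. Median tags per peak of 45.0 to 57.0 leave counting error as a sizeable part of the spread.

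Tags were rounded and fitted over all 175929 peaks with DESeq2 1.42.0 (R 4.3.3), Wald test, tamoxifen against oil, with Benjamini-Hochberg adjustment over all peaks. Tags summed per gene were fitted likewise over 19781 genes with the size factors of the peak fit. Fold changes are unshrunken and intervals are 95%. Alternatives were edgeR 4.0.16, other size factors, a filter on low tags, other limits of distance and adjusted p, separate fits by distance, a replicate block, and each library left out. All 44 chemokine peaks had an annotated distance within 2 bp of the RefSeq GRCm38.p6 TSS. The genes, the other lists, the motifs and the tests were chosen with earlier results of these data known. The text names, for each gene, the peak nearest the TSS, the highest, that with the smallest p and all called peaks, and for other pathway lists at most 3 called peaks in each direction. Other peaks it mentions were chosen after their values were seen. Same-numbered libraries did not deviate together (correlations of -0.044 and 0.051), so the replicate numbers were not taken to pair the libraries. In the erythroid marker list 1 gene is not reported here, and the list is described by its other 6 genes.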

Additional observations from a re-analysis of the deposited data

How the results depend on the processing

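The 4 calls among the chemokine peaks and the 3 among gene sums kept their number with size factors from peak tags or total tags. So they did with a mean of at least 10 tags and a limit of 50000 bp. The 4 peak calls also remained with distal and proximal peaks fitted apart. Members taken by position gave 4 calls too, but among 131 peaks rather than 44, with a median log2 fold change of 0.11. The dependence of the calls on single libraries was larger. Leaving out each library in turn gave 0 to 5 called chemokine peaks, 0 to 4 with a fold over 2, 1 to 6 called genes on summed tags, medians of 0.14 to 0.20, 0 to 9 called peaks of other ligands, 0 to 7 of other receptors, 3 to 16 of signalling genes and 4 to 40 of the cell markers. Calls over all peaks ran from 629 to 6529 in these fits. With edgeR there were 7 chemokine peaks (6 higher, 1 lower), 10 of other ligands and 6 of other receptors, among 5136 called over all peaks. At an adjusted p under 0.1 there were 6 of other ligands. The replicate block on numbers 1 and 4 used 4 libraries and gave 0 calls in each of these lists and among gene sums, with a Ccl5 sum at a log2 fold change of 1.02 and an adjusted p of 0.421; the numbers were not shown to pair the libraries. The sign turned only at Ccr1, whose summed tags gave log2 fold changes of -0.015 with edgeR, -0.0089 with size factors from tags in peaks, -0.0032 without oil replicate 4, -0.0029 without tamoxifen replicate 3, -0.0062 without tamoxifen replicate 4 and -0.0047 under the block. Its peak at 123958212 gave -0.037 without oil replicate 2 and -0.089 without tamoxifen replicate 4, and its peak at 123924759 gave -0.0037 without tamoxifen replicate 3. Over all libraries left out, the Ccr1 sum ran from -0.0062 to 0.023 and these peaks from -0.089 and -0.0037 up to 0.14 and 0.060. Gene sums by position were not run, since a peak would then belong to several genes. Peaks for which DESeq2 gave no adjusted p under an alternative were left out there.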
